A study of Homo sapiens with 3 samples.

Results

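The E2F and RB family was taken as the genes E2F1 to E2F8, RB1 and RBL1, found by their GENCODE symbols among the Ensembl identifiers of the deposited counts. All 10 were found, of 58051 genes in all and 19629 that are protein-coding. The counts come from untreated, wild-type H9 cells, an established human embryonic stem cell line grown without feeder cells on Vitronectin-XF in the medium Essential 8 Flex. Total RNA depleted of ribosomal RNA was sequenced in 3 replicates of this single condition, and the labels do not say whether the replicates were separate cultures, so their spread may be technical. No groups were compared and no test of a difference was made.

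E2F proteins are transcription factors that bind the promoters of genes needed to enter S phase, such as those for licensing origins and for making deoxynucleotides. RB1, RBL1 and RBL2, the pocket proteins, bind E2F proteins and hold these genes silent until cyclin-dependent kinases phosphorylate them late in G1. E2F1, E2F2 and E2F3 are known as activators, E2F4 and E2F5 as repressors that work with pocket proteins, E2F6 as a repressor that lacks the pocket-binding region, and E2F7 and E2F8 as atypical repressors that bind DNA without a DP partner. Embryonic stem cells are known for a short G1 phase and for pocket proteins that are largely kept phosphorylated.

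Promoter sequences of the family were examined first, since several of its genes are themselves known targets of E2F. Windows from 250 bases before to 50 after an annotated start, from RefSeq on GRCh38.p14, were matched for 8 members, with 9 windows in all; the promoters of E2F5 and E2F8 were not analysed here. Each window was searched on both strands for the words TTTGGCGC, TTTCCCGC, TTTGCCGC and TTTCGCGC, which are forms of the E2F binding motif, and for TTTGAA, known as the CHR element of late cell cycle genes. No match of 1 word overlapped that of another. An E2F word was found in 4 of the 9 windows, those of E2F1, E2F2, E2F3 and RBL1. Among all 22199 windows of protein-coding genes 4.10% held one, and among all 35116 windows 3.31%. E2F1 and RBL1 held 2 words each, and 0.198% of protein-coding windows held at least 2. The 120 bases before the start are shown for these 4 genes, 5′ to 3′ on the strand of the gene, because they place the words next to the start; the capitals mark the E2F words.
E2F1 (chr20:33686386-33686505, minus strand): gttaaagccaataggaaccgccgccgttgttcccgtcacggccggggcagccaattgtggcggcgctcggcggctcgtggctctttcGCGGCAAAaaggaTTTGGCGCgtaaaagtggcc
E2F2 (chr1:23531234-23531353, minus strand): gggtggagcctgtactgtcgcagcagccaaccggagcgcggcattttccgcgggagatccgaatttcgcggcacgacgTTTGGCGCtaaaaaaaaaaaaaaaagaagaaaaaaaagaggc
E2F3 (chr6:20401759-20401878, plus strand): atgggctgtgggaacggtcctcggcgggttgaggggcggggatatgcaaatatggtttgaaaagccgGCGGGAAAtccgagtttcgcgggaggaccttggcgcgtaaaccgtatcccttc
RBL1 (chr20:37095998-37096117, minus strand): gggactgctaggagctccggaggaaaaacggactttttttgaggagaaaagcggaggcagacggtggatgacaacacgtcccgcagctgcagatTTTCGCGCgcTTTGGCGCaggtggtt

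In E2F1 the words began 33 and 20 bases before the start, in RBL1 26 and 16 bases before it, in E2F2 42 and in E2F3 53. All 6 words thus lay within 53 bases of an annotated start. TTTGAA was found in 1 member window, that of E2F3, against 12.4% of protein-coding windows. The windows of E2F4, E2F6 and E2F7 and a second window of E2F3 held no E2F word. The only RB1 window in the table lies at an internal start, 172706 bases into the gene by GENCODE release 44, and its 38.3% GC compares with a median of 62.3% in protein-coding windows; it does not show the sequence at the first start of RB1. A match is a description of these letters and was not tested as a binding site.

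Levels were computed as TPM, transcripts per 1000000, which divides the counts of a gene by the length of its exons and scales each library to the same sum. All 10 members were detected in every library, with 137 reads or more. Protein-coding genes were sorted into classes by their mean TPM, with genes below 0.01 TPM taken as nonexpressed and the others divided into low, medium and high classes of equal size at 3.35 and 26.96 TPM. The high class held 6 members (E2F1, E2F3, E2F4, E2F5, E2F7 and E2F8) and the medium class 4 (E2F2, E2F6, RB1 and RBL1). Of all protein-coding genes, 28.8% were in each of these classes, 28.8% were low and 13.6% nonexpressed. The members had a median of 32.8 TPM, against 7.10 TPM over all protein-coding genes and 11.7 TPM over those at or above 0.01 TPM. Together they took 0.0527 ± 0.0004% of the reads (SD, n = 3). The distribution of all expressed protein-coding genes shows where they lie: from E2F4, at rank 1674 from the top, to E2F2, at rank 7918, and above the median of expressed genes in every case.

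**Figure D1:**
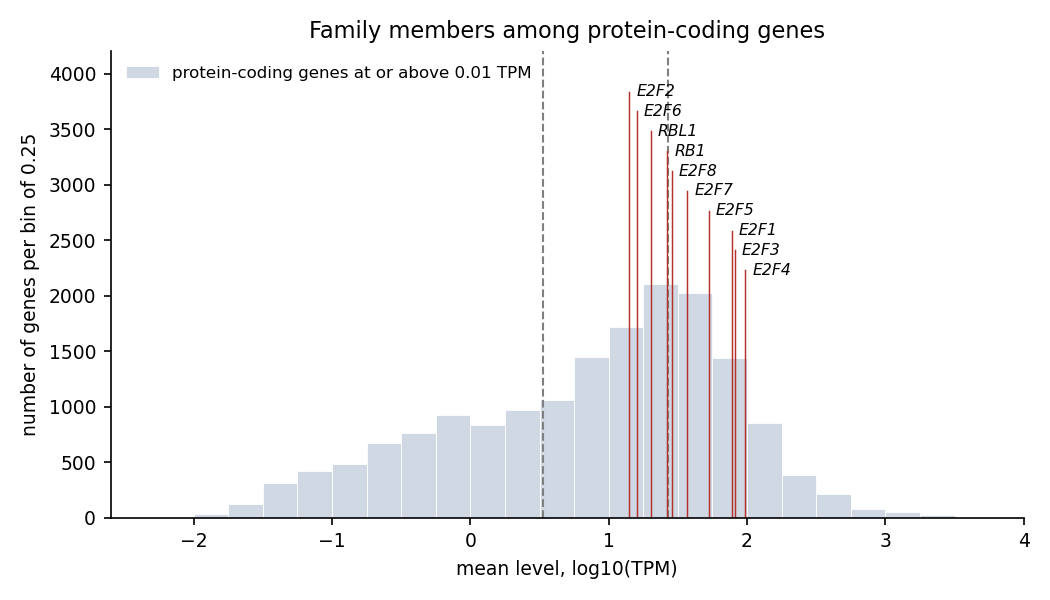
Histogram of the mean level of protein-coding genes at or above 0.01 TPM, on a log10(TPM) axis in bins of 0.25, with red lines at the 10 members and dashed lines at the class boundaries of 3.35 and 26.96 TPM. All 10 members lie to the right of the lower boundary, between 14.1 and 97.1 TPM, and RB1 and E2F8 stand on either side of the upper one.

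E2F4 (ENSG00000205250, chromosome 16, 67192155 to 67198918, plus strand), the main repressor E2F of resting and early G1 cells, had the highest level of the family. It was counted 941, 1069 and 739 times in replicates 1, 2 and 3, or 100.5, 98.2 and 92.6 TPM, with a mean of 97.1 ± 4.08 TPM (SD, n = 3). In every library it was above every other member. Its partner in function E2F5 (ENSG00000133740, chromosome 8, 85177154 to 85217158, plus strand) had 53.5, 55.0 and 51.1 TPM and a mean of 53.2 ± 1.93 TPM (SD, n = 3). The ranges of both genes did not overlap, and E2F4 was 1.83 ± 0.0484 times E2F5 within a library (SD, n = 3). Exons of E2F5 share 18.8% of their length with genes on the opposite strand, 16.6% with the protein-coding gene RBIS. The counting's use of strand is not given in the sources used here, so reads of RBIS, at 203, 258 and 162 reads per kb, could stand among those of E2F5, at 139, 166 and 114 reads per kb, which was not tested.

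The activators fell into a high pair and a low gene. E2F3 (ENSG00000112242, chromosome 6, 20401879 to 20493714, plus strand) had the most reads of the family, 1158, 1280 and 883, and 85.7, 81.5 and 76.7 TPM, with a mean of 81.3 ± 4.53 TPM (SD, n = 3). E2F1 (ENSG00000101412, chromosome 20, 33675477 to 33686385, minus strand), the founding member of the family and both a driver of S phase and an inducer of apoptosis, had 73.3, 78.0 and 82.6 TPM and a mean of 77.9 ± 4.66 TPM (SD, n = 3). Their ranges overlapped: E2F3 was higher in replicates 1 and 2 and E2F1 in replicate 3, so their order was not resolved. A pseudogene of E2F3, E2F3P1, matched it over 1255 bases at 90.3% identity and had no read, and E2F3P2 was counted 4, 5 and 8 times. E2F2 (ENSG00000007968, chromosome 1, 23506438 to 23531233, minus strand) had 14.8, 13.7 and 13.9 TPM and a mean of 14.1 ± 0.627 TPM (SD, n = 3), the lowest TPM of all 10 genes in each library. E2F1 was 5.53 ± 0.532 times and E2F3 5.76 ± 0.215 times as high as E2F2 within a library (SD, n = 3), and the range of E2F2 overlapped neither. All 3 activators have an E2F word in the promoter stretches printed above, the low E2F2 as well as E2F1 and E2F3.

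E2F6 (ENSG00000169016, chromosome 2, 11444375 to 11466177, minus strand), which represses germ line and cell cycle genes as a subunit of the Polycomb complex PRC1.6, was the second lowest member by TPM. It was counted 172, 206 and 137 times, which gave 16.2, 16.7 and 15.2 TPM and a mean of 16.1 ± 0.798 TPM (SD, n = 3). It was above E2F2 in every library, but the 95% counting intervals of the means, 14.7 to 17.5 TPM for E2F6 and 13.0 to 15.3 TPM for E2F2, overlapped; these are exact Poisson intervals and cover counting error only. E2F4 was 6.05 ± 0.165 times as high as E2F6 within a library (SD, n = 3). Stretches of 602 to 607 bases of the E2F6 transcript, up to 14.9% of its exon length, matched the pseudogenes E2F6P1, E2F6P2 and E2F6P3 at 99.2% to 99.5% identity. No read was counted on these pseudogenes or on E2F6P4 in any library, and reads that fit several copies may have been dropped from E2F6 as well, which the counts do not show.

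The atypical genes were intermediate. E2F7 (ENSG00000165891, chromosome 12, 77021248 to 77065569, minus strand) had 38.5, 36.4 and 36.4 TPM, with a mean of 37.1 ± 1.23 TPM (SD, n = 3). E2F8 (ENSG00000129173, chromosome 11, 19224063 to 19241620, minus strand) had 28.0, 30.2 and 27.6 TPM, with a mean of 28.6 ± 1.42 TPM (SD, n = 3). Both are known as E2F targets that in turn shut down E2F1 later in S phase. E2F7 was above E2F8 in every library without overlap, at 1.30 ± 0.0879 times its level within a library (SD, n = 3).

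Of the pocket proteins, RB1 (ENSG00000139687, chromosome 13, 48303744 to 48599436, plus strand), the retinoblastoma tumor suppressor, was counted 452, 477 and 403 times and had 27.0, 24.5 and 28.2 TPM, a mean of 26.6 ± 1.90 TPM (SD, n = 3). RBL1 (ENSG00000080839, chromosome 20, 36996349 to 37095997, minus strand), which encodes p107, the pocket protein known to be made in cycling cells, had 19.99, 19.92 and 20.42 TPM and a mean of 20.1 ± 0.273 TPM (SD, n = 3). RB1 was above RBL1 in every library and 1.32 ± 0.0800 times its level (SD, n = 3). RB1 and E2F8 overlapped: E2F8 was higher in replicates 1 and 2 and RB1 in replicate 3. RBL2, which encodes p130, the pocket protein of resting cells, is not among the 10 genes and had 15.5, 16.7 and 15.1 TPM, below RBL1 in each library. As reads, with no length, RBL2 was above RBL1 in each library, at 327, 409 and 271 against 310, 359 and 270. The exons of RBL2 span 8110 bases and those of RBL1 5956, so the order of RBL1 and RBL2, and their shares, depend on the gene length used. Of the summed TPM of these 3 genes, RB1 held 42.5 ± 2.17%, RBL1 32.2 ± 0.333% and RBL2 25.2 ± 1.86% (SD, n = 3). Exons of RBL2 share 16.4% of their length with genes on the opposite strand, those of RBL1 3.58% and those of RB1 none. The lncRNA gene RB1-DT, which starts next to RB1 on the opposite strand, was counted 0, 1 and 3 times.

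**Figure D2:**
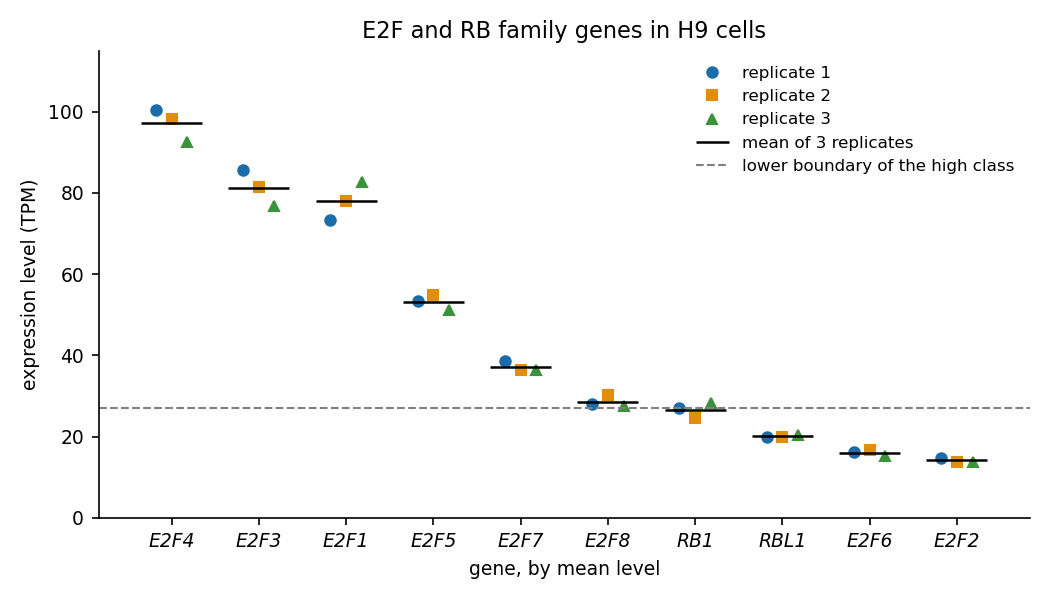
Level in TPM of each member in replicates 1, 2 and 3 (points) with the mean (black line), ordered by the mean, and the lower boundary of the high class at 26.96 TPM (dashed). Levels run from 97.1 TPM for E2F4 to 14.1 TPM for E2F2, and the points of E2F3 and E2F1, and of E2F8 and RB1, overlap.

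By mean TPM the order was E2F4, E2F3, E2F1, E2F5, E2F7, E2F8, RB1, RBL1, E2F6 and E2F2. Of the 9 pairs of neighbors in it, 7 had ranges over the 3 replicates that did not overlap, and the exceptions were E2F3 with E2F1 and E2F8 with RB1. Of all 45 pairs of members, 43 did not overlap and kept their order in each library. Counting intervals overlapped for these same pairs of neighbors and for E2F6 with E2F2. Membership of the high class depended on where its boundary lay. RB1 was 26.6 TPM and the boundary 26.96 TPM, a distance smaller than the SD of RB1, and E2F8 at 28.6 TPM was just above it. With each library sorted alone, the upper boundary was 28.6 to 29.0 TPM, and 5, 6 and 5 members were in the high class, since E2F8 reached it only in replicate 2. E2F1, E2F3, E2F4, E2F5 and E2F7 were in it in each library alone. With a threshold of 1 TPM for nonexpressed genes the boundary was 37.9 TPM and 4 members were high, without E2F7 and E2F8. Over the genes kept by filterByExpr it was 38.6 TPM, with the same 4 members, and with every gene classified it was 8.57 TPM and all 10 were high.

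The family was next described by the share of each subgroup in the summed TPM of the 8 E2F genes, which does not depend on the scaling between libraries. Summed E2F levels were 411, 410 and 396 TPM, with a mean of 405 ± 8.20 TPM (SD, n = 3). The activators E2F1 to E2F3 held 42.3%, 42.3% and 43.7% of this sum, a mean of 42.8 ± 0.817% (SD, n = 3). E2F4 and E2F5 held 37.5%, 37.4% and 36.3%, a mean of 37.1 ± 0.666% (SD, n = 3), and were below the activators in every library. E2F7 and E2F8 held 16.2 ± 0.0532% and E2F6 3.96 ± 0.126% (SD, n = 3). By gene, E2F4 held 23.95%, E2F3 20.04%, E2F1 19.25% and E2F5 13.12%. Which of the leading subgroups was larger turned with the gene length used: with the longest transcript in place of all exons, E2F4 and E2F5 held 42.3 ± 0.677% and the activators 38.0 ± 0.783% (SD, n = 3). The exons of E2F4 span 3596 bases in all and its longest transcript 2615, while for E2F1 both are 2690 bases. As shares of reads, with no length, they were 39.5% for the activators and 37.2% for E2F4 and E2F5. E2F6 held the smallest share and E2F7 with E2F8 the next smallest on each of these scales.

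**Figure D3:**
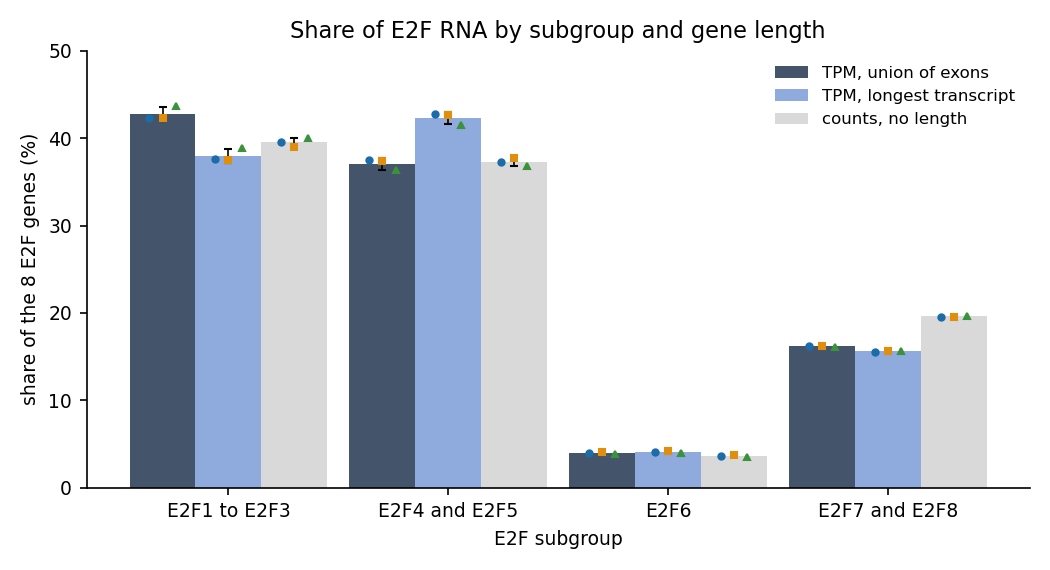
Share (%) of the 8 E2F genes held by each subgroup, from TPM over the union of exons, TPM over the longest transcript, and counts without length; bars are means, error bars SD and points the 3 replicates. The activators lead at 42.8% with the union of exons, E2F4 and E2F5 at 42.3% with the longest transcript, and E2F6 stays between 3.64% and 4.07%.

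The spread between replicates was compared with that from counting alone, and with that of protein-coding genes whose summed count was within 20% of the member's. The coefficient of variation (CV) of TPM ran from 1.36% for RBL1 to 7.14% for RB1. In 5 members (E2F2, E2F6, E2F7, E2F8 and RBL1) it was below the value that Poisson counting gives at their depth, and in 7 below the median of genes of like count. By definition, as many like genes lie below their median as above it. A CV from 3 libraries is imprecise, and the share of all genes below their counting CV was not computed. These counts of members are thus no measure of an unusually low spread. E2F3, with 3321 reads over the libraries, had a CV of 5.57% where counting gives 3.03% and like genes a median of 4.58%. E2F1 had 5.98%, against 4.31% from counting and 5.26% in like genes, and RB1 7.14%, against 4.79% and 5.47%. These are the 3 members above the median of their like genes. Of their like genes, 64.0%, 59.2% and 64.7% had a lower CV than E2F3, E2F1 and RB1, respectively. Counting error was widest for E2F6, whose 515 reads gave a 95% interval from 8.45% below to 9.02% above the count, and narrowest for E2F3, at 3.37% below and 3.46% above.

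**Figure D4:**
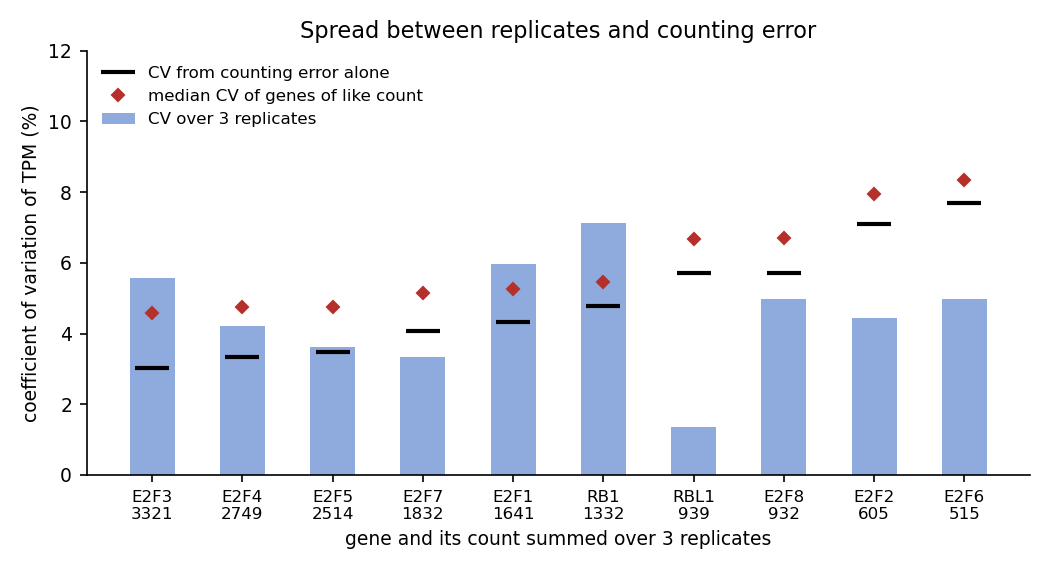
CV of TPM over the 3 replicates (bars, %) for each member, ordered by summed count, with the CV from counting error alone (black dashes) and the median CV of protein-coding genes of like count (diamonds). E2F3, E2F1 and RB1 lie above the diamonds, and RBL1, at 1.36%, lies lowest.

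Replicates 1, 2 and 3 had 10390984, 12024802 and 8655155 counted reads. The log2 ratio of the TPM of replicate 3 to the mean of replicates 1 and 2 was set beside exon GC content. Across the 9386 protein-coding genes that had 100 counts or more in each library, which are not independent replicates and share these libraries, the Spearman correlation of both was 0.418, given as a description. This ratio was 0.13 for E2F1 and 0.13 for RB1, the genes with the highest (61.6%) and the lowest (36.9%) exon GC of the family. It was -0.13 for E2F3 at 47.2% GC, -0.12 for E2F6 at 43.3% and -0.10 for E2F4 at 58.8%, and between -0.08 and 0.03 for the other 5. All 10 ratios lay between the 10th and the 90th percentile of those genes, -0.19 and 0.22. E2F1 and E2F3, whose ratios had opposite signs, changed their order in replicate 3. The part of GC content in these members' ratios was not tested. Levels of the 4 markers of pluripotency, all high, ran from 275 TPM for NANOG to 2576 TPM for LIN28A, with POU5F1 and SOX2 between. Of 15 genes listed as markers of other cell types 2 were high (NES at 327 TPM and THY1 at 145 TPM), 6 medium and 7 low. CGA and HAND1 were below 1 TPM. The medium ones were COL1A2 at 25.6 TPM, MIXL1 at 22.3, COL1A1 at 14.6, TUBB3 at 7.56, FOXA2 at 7.54 and KRT7 at 6.70. The summed level of the list was 542 to 588 TPM per library. Whether other cell types were present was not tested, nor whether H9 cells themselves express the listed genes, NES and THY1 among them.

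DP proteins pair with E2F1 to E2F6 to bind DNA. TFDP1 had 168, 167 and 154 TPM, a mean of 163 ± 8.20 TPM (SD, n = 3), which was above any E2F gene in every library. TFDP2 had 31.6, 34.9 and 37.8 TPM, and TFDP1 was 4.73 ± 0.632 times as high within a library (SD, n = 3). No read was counted on TFDP3, which allows up to 3 counts per library, or levels of up to 0.586 to 0.798 TPM. The summed E2F1 to E2F6 genes had 340 ± 6.70 TPM, and TFDP1 alone was 0.480 ± 0.0148 of that sum (SD, n = 3).

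MuvB is the core that the pocket protein RBL1 or RBL2 joins with E2F4 to form the repressive DREAM complex. MYBL2 and FOXM1 join MuvB later to activate mitotic genes. Of the 7 genes listed for MuvB and its partners 3 were high, 3 medium and 1 low, each class holding 28.8% of protein-coding genes. The median of the 7 was 22.5 TPM. The high genes were MYBL2, at 380 ± 9.11 TPM, the histone-binding subunit RBBP4, at 197 ± 3.63 TPM, and FOXM1, at 175 ± 9.95 TPM (SD, n = 3 each). RBBP4 and FOXM1 share 22.8% and 15.9% of their exon length with genes on the opposite strand. LIN54, the DNA-binding subunit, had 22.5 ± 0.845 TPM, LIN9 19.6 ± 0.298 TPM and LIN52 14.7 ± 0.359 TPM (SD, n = 3 each), levels near those of RBL1 and RBL2. LIN37 was counted 18, 13 and 10 times and had 1.86 ± 0.516 TPM (SD, n = 3), but 54.0% of its exon length is shared with other genes, and 26.7% with genes on the same strand, so its value is uncertain.

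Pocket proteins are inactivated by cyclin D and cyclin E kinases and guarded by kinase inhibitors. Of 8 cyclin and kinase genes 6 were high and 2 medium, each class holding 28.8% of protein-coding genes. Their median was 69.2 TPM, from CCND1 at 464 ± 2.31 TPM to CCNE2 at 13.0 ± 0.962 TPM (SD, n = 3). CCNE2 shares 37.1% of its exon length with genes on the opposite strand, and CDK4, which was high, shares 44.2%, the most in this list. Of 7 inhibitor genes none was high, 3 were medium, 3 low and 1 nonexpressed, a class with 13.6% of protein-coding genes. Their median was 3.14 TPM. By TPM CDKN1C was highest, at 16.73, 21.99 and 25.98. As reads, with no length, CDKN1B was above CDKN1C in each library, at 324, 415 and 321 against 108, 165 and 143. The exons of CDKN1B span 9255 bases and those of CDKN1C 2480, so this rank depends on the gene length used. No read was counted on CDKN2A, which encodes the CDK4 and CDK6 inhibitor p16. Over its 3885 exon bases the limit of 3 counts is 0.255 to 0.348 TPM per library. Its longest transcript has 1052 bases, and over that length the limit would be higher. CDKN2B had 4, 1 and 8 reads and CDKN2C 3, 1 and 0. Levels of RNA do not show how far RB1 or RBL1 protein was phosphorylated.

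The partners of E2F6 in PRC1.6 were mostly higher than E2F6 itself. Of 10 genes 8 were high, 1 medium and 1 low, each class holding 28.8% of protein-coding genes. Their median was 41.2 TPM, from CBX3, a reader of methylated histone H3, at 212 ± 7.98 TPM to YAF2 at 1.52 ± 0.389 TPM (SD, n = 3). YAF2 was the only one below the 16.1 TPM of E2F6, with 32, 50 and 46 reads.

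Of the known E2F target genes, all 20 were in the high class, which held 28.8% of protein-coding genes, and their median was 157 TPM. PCNA, the sliding clamp of DNA polymerases, was highest, at 806, 836 and 763 TPM, and POLA1, the catalytic subunit of polymerase alpha, was lowest, at 33.7, 32.8 and 29.2 TPM. Their summed level was 4496 to 4713 TPM per library, against 396 to 411 TPM for the 8 E2F genes. TYMS shares 47.9% of its exon length with genes on the opposite strand, the most of the 20 targets. The genes were listed because they are textbook targets, and that they are transcribed by E2F in H9 cells was not measured.

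**Figure D5:**
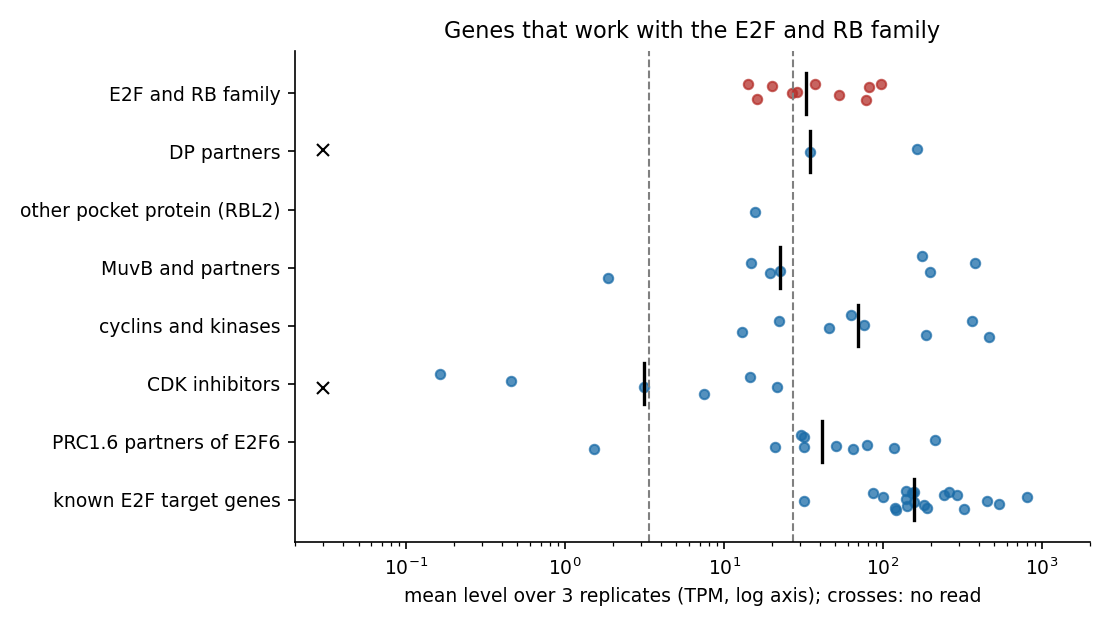
Mean level over 3 replicates, in TPM on a log axis, of the 10 family members (red) and of the genes in each list of partners, regulators and targets (blue), with the median of a list (black line), the class boundaries at 3.35 and 26.96 TPM (dashed) and genes without a read (crosses). Known targets lie highest, with a median of 157 TPM, and kinase inhibitors lowest, with a median of 3.14 TPM.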

How the data were processed

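The files hold counts of reads per Ensembl gene, deposited by the authors without normalization. Reads had been trimmed with trim_galore (version 0.4.4) and aligned to GRCh38 with tophat (version 2.1.1); how reads were assigned to genes (tool, annotation, strand) is not given in the sources used here. Cufflinks TPM of the study were not used. Counts were joined to GENCODE release 44, on the same build (56948 of 58051 identifiers matched), and converted to TPM over the union of exons. The classes used the threshold and quantiles in the methods of the paper, but on these TPM and on protein-coding genes only, a choice made here. Neighbors in the order of levels were said to differ where their ranges over the replicates did not overlap. Exact 95% Poisson intervals and the limit of 3 counts for a count of 0 cover counting error only. Copies were sought with blastn 2.17.0 (90% identity over 200 bases) against GENCODE transcripts. Besides the pseudogenes of E2F3 and E2F6, short stretches of E2F5 (214 to 257 bases) matched 13 other genes. Those of RBL1 (209 to 289 bases) matched 28, some of them well expressed, and the effect on the counts was not tested. The sorting into classes and the CV from counting alone were tested on simulated Poisson counts, and the other steps were not. R 4.3.3 and Python 3.11.15 with matplotlib 3.10.9, scipy 1.17.1, pandas 2.3.3 and numpy 2.4.6 were used, and for scaling and filtering in the alternatives edgeR 4.0.16 and DESeq2 1.42.0. All 10 members were named. Of the pathway lists, every DP, RBL2 and MuvB gene was named, with the highest and lowest gene of each other list and those below 1 TPM. CDK4 and TYMS were added for their exon overlap, and CDKN1B for its reads. All 4 markers of pluripotency were named. Of the markers of other cell types, those high, medium or below 1 TPM were named, a choice made after their values were seen. The members and lists were chosen with earlier results of these data known. Alternatives were other gene lengths, units, scalings, thresholds and gene sets, thinned counts, the median and leaving out each replicate.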

Additional observations from a re-analysis of the deposited data

How the results depend on the processing

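The number of members in the high class, 6, was 10 with every gene classified, as most of those are not protein-coding and the boundary fell to 8.57 TPM, and 4 with a threshold of 1 TPM or over the genes kept by filterByExpr, where E2F7 and E2F8 left it. It was 5 to 7 in all other alternatives, and 6 to 7 without replicate 1, 2 or 3. With the longest transcript as gene length, the shares of E2F1 to E2F3, E2F4 and E2F5, and E2F7 and E2F8 were 38.0%, 42.3% and 15.6%, and the ratio of RB1 to RBL1 was 1.70. With CPM in place of TPM, the shares of E2F1 to E2F3, E2F6, and E2F7 and E2F8 were 39.5%, 3.64% and 19.6%, and that ratio was 1.43; both follow from the lengths alone. With the counts thinned to 10%, the shares of E2F6 and of E2F7 and E2F8 were 4.15% and 16.4%. Scaling by TMM or DESeq2 factors moved no member level by more than its SD. It cannot change the shares or the ratio, which are taken within a library. Of the 10 member levels, the longest transcript moved 8 (all lower), CPM 8 (6 higher and 2 lower), a TPM total over protein-coding genes 10 (all higher) and leaving out mitochondrial genes 3 (all higher); no other alternative moved one by more than its SD. Without replicate 1, 2 or 3 the shares were 42.3% to 43.0%, 36.8% to 37.5%, 3.90% to 4.02% and 16.18% to 16.23%, and the ratio was 1.29 to 1.37. The order of the 10 members was the same in 7 of 11 alternatives. E2F4 was first in 10 of them, and E2F3 with CPM. The share of member windows with an E2F word, 44.4%, was 33.3% with TTTGGCGC alone and 11.1% with TTTCCCGC, TTTGCCGC or TTTCGCGC alone, as fewer words were searched. No paired analysis was possible because all samples are of 1 group.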
